A study of Mus musculus with 6 samples.

Results

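The 10 genes described here encode proteoglycan core proteins. They are *Srgn*, *Dcn*, *Bgn*, *Lum*, *Vcan*, *Fmod*, *Ogn*, *Aspn*, *Sdc1* and *Gpc3*, out of 18460 genes listed in at least 1 of 6 mouse breast tumors. They were chosen by name, as core proteins, with earlier results of these data known. Each was found by its NCBI Gene identifier in all 6 tumors. A proteoglycan is a core protein, most often carrying long sulfated sugar chains called glycosaminoglycans. Serglycin, the product of *Srgn*, is the intracellular member of the group and packs proteases and other cargo into the secretory granules of blood cells. Versican (*Vcan*) is a large chondroitin sulfate proteoglycan that binds hyaluronan in loose matrix. Decorin, biglycan, lumican, fibromodulin, osteoglycin and asporin are small leucine-rich proteins that bind collagen or growth factors, whereas syndecan-1 (*Sdc1*) and glypican-3 (*Gpc3*) carry heparan sulfate at the cell surface. In the mammary gland and its tumors the small leucine-rich members are mostly products of stromal fibroblasts, and syndecan-1 is prominent on epithelium.

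The 3 control tumors came from Balb/c PyMTtg;Rag1KO mice and the 3 test tumors from Balb/c K14-TSLPtg;PyMTtg;Rag1KO mice. All hosts carried the polyoma middle T transgene, which the mouse mammary tumor virus promoter drives in mammary epithelium, lacked *Rag1* and so their own T and B cells, and were given CD4+ T cells at 4 wk of age. Tumors were taken at the endpoint, at week 18 to 20. The test group differed by a transgene for thymic stromal lymphopoietin under the keratin 14 promoter, which is active in keratinocytes. Whole tumor tissue was sequenced, so that fewer cells of a type and less RNA per cell cannot be told apart. Expected counts, which are estimates of the reads from each gene, summed to between 8373390 and 9449565 per tumor. *Tslp* had 2, 2 and 3 counts in control tumors 1, 2 and 3 and 12, 7 and 2 counts in test tumors 1, 2 and 3, so test tumor 3 was at the level of the controls for this transcript. *Rag1* had 27, 4 and 10 counts in control tumors and 6, 12 and 9 counts in test tumors, and the part of the gene that these reads came from was not analysed here. Control tumor 2 stood apart from the other controls in many of the genes below, and the log2 fold change of each of the 10 core protein genes is therefore also given without it. It was singled out after its values were seen, so the p-values without it are descriptive. In *Fmod* it was control tumor 3 that stood apart, and in *Dcn* and *Aspn* control tumor 1.

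*Srgn* and *Vcan* had the widest ranges across the tumors and high levels in the same 2 tumors, and the sequences before their transcription starts are shown for that reason. They are the 250 bases upstream of each start, from RefSeq on GRCm38.p6, the assembly also called mm10 that the reads were aligned to, and all 3 are on the minus strand and written 5′ to 3′. The RefSeq table has 2 starts for *Srgn*, 19688 bases apart. They lie at chr10:62527446-62527695 and chr10:62507758-62508007, and the sequence of *Vcan* lies at chr13:89742513-89742762. *Vcan* is annotated up to base 89743027, so its window, like that of the inner *Srgn* start, lies within the bounds of the gene. Capitals mark matches on either strand to 6 short motifs, namely TATAAA (the TATA box), CCAAT (the CCAAT box), GGGCGG (the GC box), TGANTCA (the AP-1 site), CCGGAA (an ETS core) and TGACGT (a half-site of the cAMP response element). The matches do not overlap each other in these windows.
Srgn outer start: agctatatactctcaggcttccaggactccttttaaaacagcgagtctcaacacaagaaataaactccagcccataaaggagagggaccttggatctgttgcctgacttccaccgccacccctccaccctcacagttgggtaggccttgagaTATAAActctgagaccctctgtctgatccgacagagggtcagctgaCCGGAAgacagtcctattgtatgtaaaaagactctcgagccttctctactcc
Srgn inner start: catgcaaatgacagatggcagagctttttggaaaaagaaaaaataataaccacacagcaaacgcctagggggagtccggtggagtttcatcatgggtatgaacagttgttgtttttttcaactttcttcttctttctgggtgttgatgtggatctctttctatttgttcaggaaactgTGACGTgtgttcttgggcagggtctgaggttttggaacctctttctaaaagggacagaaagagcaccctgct
Vcan: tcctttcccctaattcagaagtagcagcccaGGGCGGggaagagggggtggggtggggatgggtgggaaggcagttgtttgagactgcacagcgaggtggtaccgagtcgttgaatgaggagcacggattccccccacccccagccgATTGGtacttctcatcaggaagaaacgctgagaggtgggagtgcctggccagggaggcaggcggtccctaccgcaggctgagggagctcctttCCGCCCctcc
The outer *Srgn* start had TATAAA with its first base at -98 and CCGGAA at -52, and the inner start had TGACGT at -72. *Vcan* had matches to GGGCGG at -219 and -10 and to CCAAT at -103. The *Srgn* and *Vcan* windows shared none of the 6 motifs. Among 32851 promoter windows of the same length, TATAAA was in 12.4%, CCAAT in 33.8%, GGGCGG in 32.7%, TGANTCA in 6.75%, CCGGAA in 12.0% and TGACGT in 6.47%. The table held windows for 8 of the 10 genes, and GGGCGG was also found before *Sdc1*, *Gpc3* and *Bgn*. A match is a description of letters and not a binding site. Reads per start were not analysed here. The gene length that the authors used for *Srgn* was 938 bases in every tumor.

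Compared per length, as FPKM (fragments scaled by gene length and by sequencing depth), the order of the mean levels over 6 tumors was *Srgn* (369.6), *Bgn* (191.2), *Dcn* (81.4), *Sdc1* (39.2), *Vcan* (19.4), *Lum* (15.9), *Fmod* (8.31), *Aspn* (7.09), *Gpc3* (5.45) and *Ogn* (2.19). Most neighbors in this order were not separated in every tumor. *Srgn* exceeded *Bgn* in 2 of 6 tumors, *Dcn* exceeded *Sdc1* in 4, *Vcan* exceeded *Lum* in 2, *Fmod* exceeded *Aspn* in 2 and *Aspn* exceeded *Gpc3* in 4. *Bgn* exceeded *Dcn* in 5 of 6 tumors, *Sdc1* exceeded *Vcan* in 5, *Lum* exceeded *Fmod* in 5, and *Gpc3* exceeded *Ogn* in 6 of 6. Thus the first place of *Srgn* rested on control tumors 1 and 3.

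**Figure D1:**
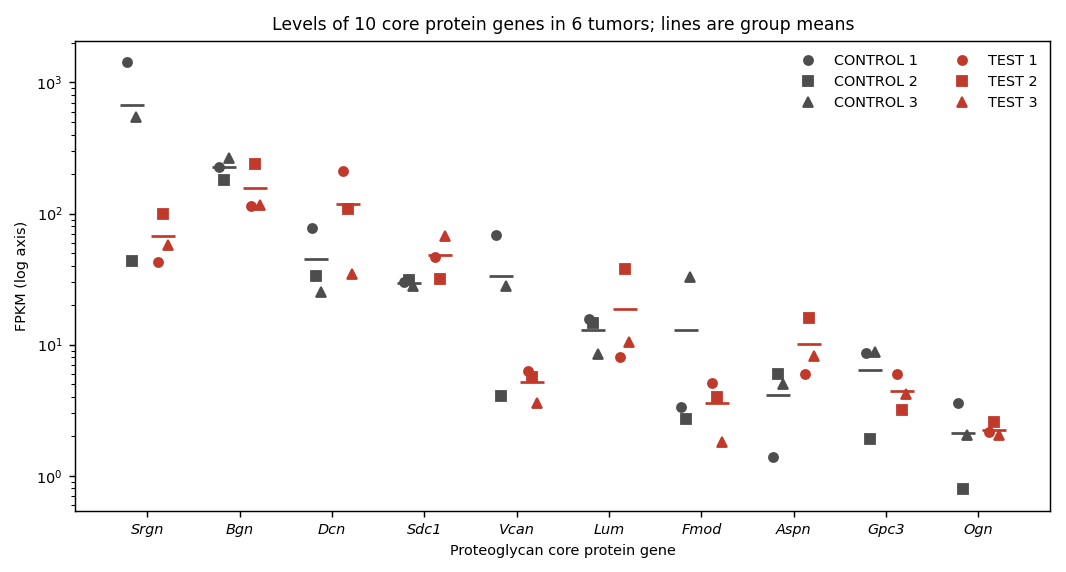
FPKM on a log axis for the 10 core protein genes, ordered by their mean over 6 tumors, with control tumors in grey, test tumors in red, a marker shape for each replicate number and lines at group means. *Srgn* and *Vcan* are high in control tumors 1 and 3 and low in control tumor 2 and the 3 test tumors.

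The makeup of the core protein transcripts differed from tumor to tumor. *Srgn* held 76.6% of the summed FPKM of the 10 genes in control tumor 1 and 57.2% in control tumor 3. It held 13.5% in control tumor 2 and 9.63%, 18.2% and 18.9% in test tumors 1, 2 and 3. *Bgn* was the most abundant of the 10 in control tumor 2 (56.9%) and in test tumors 2 (43.7%) and 3 (38.1%), and *Dcn* was the most abundant in test tumor 1 (47.0%). The ratio of *Dcn* to *Vcan* FPKM was 1.14, 8.23 and 0.9 in control tumors 1, 2 and 3 and 33.3, 18.9 and 9.72 in test tumors 1, 2 and 3. This ratio was chosen after its values were seen and was not tested. The 2 groups did not overlap in it, although control tumor 2 was close to test tumor 3.

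**Figure D2:**
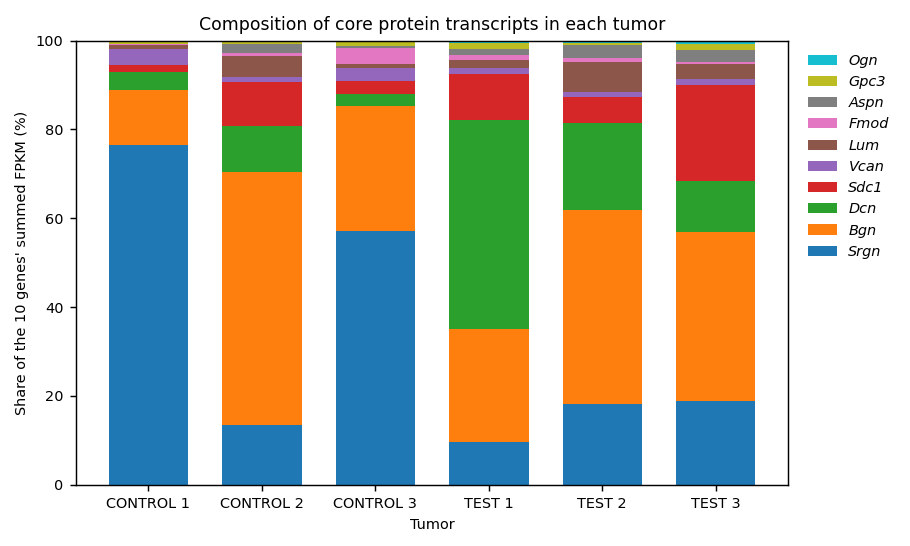
Share of each core protein gene in the summed FPKM of the 10 genes (percent, stacked bars), with 1 bar for each tumor. *Srgn* takes 76.6% and 57.2% in control tumors 1 and 3 and from 9.63% to 18.9% in the other 4 tumors.

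To determine which core protein genes differed between the groups, the counts were compared across all genes with edgeR's quasi-likelihood test, and levels are given as CPM (counts scaled by library size after TMM normalization). All 10 genes passed the filter on low counts, with 13706 genes tested. None of the 10 passed an adjusted p of 0.05, and neither did any other gene (0.0% of those tested), while 3 of the 10, and 1153 of all tested genes, had an unadjusted p under 0.05. DESeq2, run as an alternative, called 313 genes at an adjusted p of 0.05 (2.28% of those tested), among them *Srgn* and *Vcan*. Without control tumor 2 edgeR called 182 genes (1.28%), again with *Srgn* and *Vcan* among them. That tumor was singled out after its values were seen. At an unadjusted p under 0.05, *Srgn* and *Vcan* were lower in test tumors, against 5.26% of all tested genes in that direction, and *Sdc1* was higher, against 3.15%. The CPM of 1 of the 10 genes, *Sdc1*, did not overlap between the groups with the test tumors higher, against 6.12% of all tested genes, and for none were the test tumors lower without overlap, against 5.86%. The log2 fold change of test over control was below 0 for 5 of the 10 genes, with a median of -0.22, beside 0.018 for all tested genes. The span between tumors of 1 group was wider in controls than in test tumors for 6 of the 10 genes, and the median ratio of the highest to the lowest CPM was 4.47 in controls and 2.4 in test tumors.

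**Figure D3:**
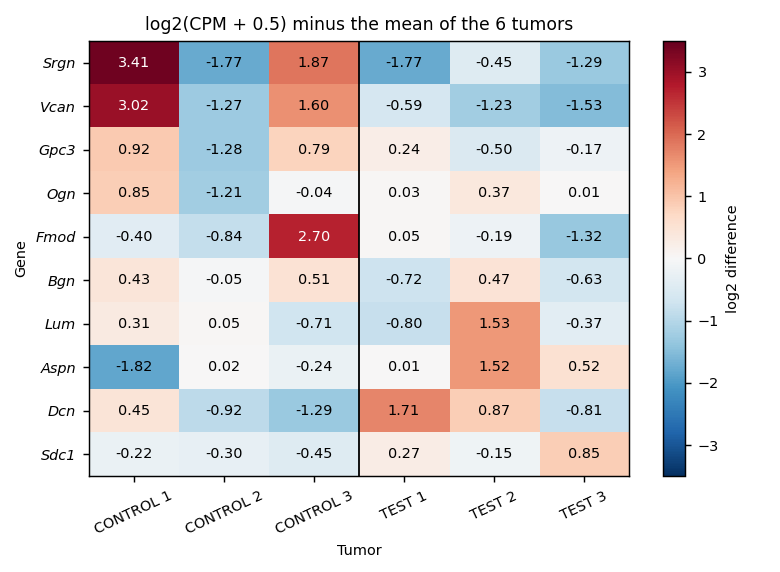
Level of each core protein gene in each tumor as log2(CPM + 0.5) minus its mean over the 6 tumors, with red above and blue below that mean and the difference printed in each cell. *Srgn* and *Vcan* reach 3.41 and 3.02 in control tumor 1 and are below 0 in control tumor 2 and the test tumors.

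Serglycin was the gene with the widest span. *Srgn* (NCBI Gene 19073, chromosome 10, 62493833 to 62527445) had 1404.8, 38.2 and 482.5 CPM in control tumors 1, 2 and 3 and 38.2, 96.3 and 53.4 CPM in test tumors 1, 2 and 3. Control tumors 1 and 3 were above every test tumor, and control tumor 2 was at the level of the lowest test tumor, so the groups overlapped. The ratio of the highest to the lowest CPM was 36.8 among the controls and 2.52 among the test tumors. The log2 fold change of test over control was -3.36 (standard error 1.08, Benjamini-Hochberg adjusted p = 0.473 by edgeR). The exact two-sided permutation test on log2(CPM + 0.5) gave p = 0.3, where 3 tumors against 3 cannot give less than 0.1. Without control tumor 2 the log2 fold change was -3.91 with an adjusted p of 0.0402, and without control tumor 1 it was -2.06 with an adjusted p of 1.0. Over the alternative fits the adjusted p ran from 0.0102 with DESeq2 to 1.0, and the unadjusted p was above 0.05 in 3 of the 6 fits that left out 1 tumor (control tumor 1, test tumor 1 or test tumor 3).

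Serglycin is made by many blood cells and by endothelium, so its level was set beside markers of these cells. The 8 pan-leukocyte markers, such as *Ptprc*, summed to between 144.5 and 286.4 FPKM in control tumors and between 94.3 and 231.1 in test tumors. The 9 macrophage markers summed to between 481.1 and 895.7 FPKM in controls and between 370.2 and 811.7 in test tumors, and the 8 endothelial markers to between 34.0 and 45.2 and between 39.8 and 51.0. None of these 3 lists had a member with an unadjusted p under 0.05. The highest sum of the macrophage list was in control tumor 3, whereas *Srgn* was highest in control tumor 1.

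The log2 ratio of *Srgn* FPKM to the geometric mean of the leukocyte markers was 6.01, 1.64 and 4.47 in control tumors 1, 2 and 3 and 2.30, 2.42 and 1.70 in test tumors 1, 2 and 3. To the macrophage markers it was 5.62, 1.05 and 3.57 in controls and 1.30, 1.69 and 1.41 in test tumors. Thus control tumors 1 and 3 had more *Srgn* for the same marker level than the other 4 tumors. The difference of test minus control was -1.90 for leukocytes, -1.94 for macrophages (exact permutation p = 0.4 for both), -2.47 for endothelium (p = 0.2) and -1.48 for neutrophils (p = 0.4). The 8 neutrophil markers summed to between 59.4 and 134.9 FPKM in controls and between 31.6 and 83.8 in test tumors, with the highest sum in control tumor 1. *S100a9* was at 71.04, 9.51 and 20.81 FPKM in controls and 2.34, 4.79 and 35.63 in test tumors. *S100a8*, *Csf3r* and *Mmp9* were also highest in control tumor 1. *Cxcr2* and *Ngp* were highest in test tumor 2, *Retnlg* in test tumor 3 and *Camp* in control tumor 2.

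The mast cell list gave the only ratio of *Srgn* whose groups did not overlap, with a difference of -3.10 (exact permutation p = 0.1, and 0.62 after Benjamini-Hochberg adjustment over the 14 ratios tested). The ratio is taken to a geometric mean, and the markers of this list had different patterns over the tumors. *Ms4a2* and *Fcer1a*, subunits of the high-affinity IgE receptor, were at 0 to 0.04 and 0 to 0.24 FPKM. The chymase gene *Cma1* was at 0, 0.31 and 0.41 FPKM in controls and 2.12, 2.61 and 0.79 in test tumors, without overlap, on at most 24 counts. *Tpsb2* was at 0.71, 0.42 and 0.21 FPKM in controls and 1.12, 3.14 and 0.3 in test tumors, and *Cpa3* at 0.15, 0 and 0.08 and at 0.58, 1.28 and 0.07. *Kit*, which epithelial cells also make, was at 24.46, 49.8 and 30.23 FPKM in controls and 97.96, 27.57 and 84.5 in test tumors. *Hdc*, in contrast, was highest in control tumors 1 and 3. The 8 T cell markers summed to at most 5.42 FPKM and the 7 NK cell markers to at most 6.74 FPKM in any tumor. The sums of some lists separated control tumors 1 and 3 from the other 4 tumors, as *Srgn* and *Vcan* did. The leukocyte markers summed to 236.1 and 286.4 FPKM in these 2 tumors and to between 94.3 and 231.1 in the others, a narrow gap. *Ptprc*, *Laptm5*, *Itgb2* and *Arhgdib* were highest in these 2 tumors, whereas *Cd53*, *Coro1a*, *Cd52* and *Tyrobp* were highest in test tumor 2. The luminal epithelial markers summed to 1164.7 and 1106.3 FPKM in these 2 tumors and to between 2494.6 and 3291.0 in the others, and the skeletal muscle markers to 4.77 and 3.53 against 71.4 to 617.5. The fibroblast markers *Pdpn* and *Fap* were high in the same 2 tumors, at 82.09 and 121.3 FPKM for *Pdpn* (11.58 to 16.52 in the others) and 5.72 and 5.94 for *Fap* (0.79 to 2.83). The sum of all 12 fibroblast markers did not separate these tumors, at 510.2 and 982.7 FPKM against 344.4 to 1216.8 in the others. *Col1a1* and *Col1a2* were lowest in control tumor 1, at 21.2 and 40.16 FPKM. The part of cell makeup in the *Srgn* and *Vcan* differences was not tested.

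**Figure D4:**
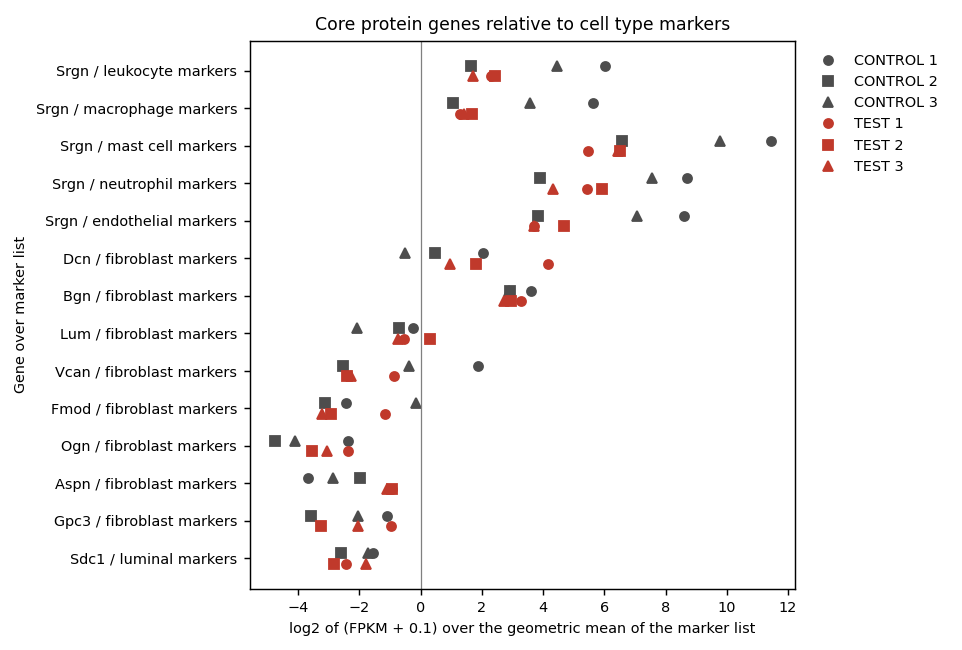
Log2 ratio of each core protein gene to the geometric mean of a list of cell type markers, from FPKM + 0.1, with 1 point for each tumor, control in grey and test in red. Control tumors 1 and 3 lie to the right of the other tumors in the 5 ratios of *Srgn*, and the 3 test tumors lie to the right of the controls in the ratio of *Aspn*.

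Of 13 granule proteins on the list, 12 were listed and 4 passed the filter on low counts, and none of these 4 had an unadjusted p under 0.05 by edgeR, while DESeq2 gave 1, *Hdc*. The highest by mean FPKM was *Prtn3*, a neutrophil serine protease, at 20.99, 67.73 and 7.19 FPKM in control tumors 1, 2 and 3 and 11.27, 50.33 and 7.24 in test tumors 1, 2 and 3. *Elane* and *Ctsg*, other granule protease genes of the list, were at or below 0.77 and 0.12 FPKM, and *Mpo* was not listed. Which cells made the *Prtn3* transcripts was not analysed here. *Prtn3* was highest in control tumor 2, where *Srgn* was lowest among the controls. *Hdc*, the histidine decarboxylase that makes histamine, was highest in control tumors 1 and 3 instead, at 3.13, 0.28 and 0.97 FPKM in controls and 0.45, 0.05 and 0.49 in test tumors, and so was the perforin gene *Prf1*, at 1.37, 0.11 and 0.59 against 0.06, 0.11 and 0.27. All 4 tested cargo genes had a log2 fold change below 0. With no filter on low counts, 5 of the 12 listed were below 0 and 7 above, with a median of 1.64. In that fit *Cma1* was higher in test tumors at an unadjusted p under 0.05 by edgeR. The genes that this fit added had at most 31 counts in any tumor, with at most 1 for *Ctsg* and 6 for *Elane*, so the median rests on few reads. *Gzma*, *Cma1*, *Mcpt4*, *Tpsb2* and *Cpa3*, which did not pass the filter, were highest in test tumor 2. The platelet chemokine *Pf4* was at 8.81, 0.57 and 4.67 FPKM in controls and 1.82, 5.51 and 1.44 in test tumors. The granzyme genes *Gzma* and *Gzmb* were at or below 4.2 and 3.31 FPKM.

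Among the tested genes, those whose profile over the 6 tumors was closest to that of *Srgn* were *Hoxa3*, *Gria3*, *Mxra8*, *Insyn1* and *Cpt1c*. Likeness was the root mean square difference of log2(CPM + 0.5) after centering on the 6 tumors, and it was 0.27, 0.27, 0.42, 0.46 and 0.46. *Vcan* was the closest of the core protein genes, at 0.65 and rank 35, followed by *Gpc3* at 1.47 and rank 862. *Mxra8*, the most abundant of the 5, was at 121.43, 6.34 and 76.24 FPKM in control tumors and 8.73, 10.52 and 5.6 FPKM in test tumors. These values describe 6 tumors that share a group structure.

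*Vcan* (NCBI Gene 13003, chromosome 13, 89655309 to 89743027) had 742.9, 37.5 and 276.9 CPM in control tumors 1, 2 and 3 and 60.5, 38.6 and 31.3 CPM in test tumors 1, 2 and 3. As with *Srgn*, control tumors 1 and 3 were high and control tumor 2 was within the range of the test tumors. Its log2 fold change was -3.02 (standard error 0.92, adjusted p = 0.454 by edgeR), and the exact permutation test gave p = 0.3. Without control tumor 2 it was -3.55 with an adjusted p of 0.0349, and without control tumor 1 it was -1.86 with an adjusted p of 1.0, the highest of its alternatives, with 0.0102 by DESeq2 as the lowest. The unadjusted p was above 0.05 in 1 of the 6 fits that left out 1 tumor, the fit without test tumor 2. The log2 ratio of *Vcan* to the 12 fibroblast markers was 1.86, -2.55 and -0.37 in controls and -0.87, -2.41 and -2.27 in test tumors, a difference of -1.50 (exact permutation p = 0.4).

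Versican is made in several splice forms that differ in the length of the part that carries chondroitin sulfate. The gene length the authors give for *Vcan* is an average over its transcripts that varies by tumor. It was 10015.29, 9534.03 and 10013.59 bases in control tumors 1, 2 and 3 and 9808.97, 6384.06 and 8604.95 bases in test tumors 1, 2 and 3. Test tumor 2 had the shortest average and the lengths of controls 1 and 3 were the longest. Reference transcripts of *Vcan* matched by RefSeq name were 12427, 8332, 5702, 2321 and 2273 bases long. Since FPKM is divided by this length, the FPKM of test tumor 2 (5.68) was close to that of test tumor 1 (6.3), whereas the CPM was 38.6 against 60.5. Levels of single transcripts were not analysed here.

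The small leucine-rich members did not share 1 pattern. Decorin limits collagen fibril thickness and binds transforming growth factor-β. *Dcn* (NCBI Gene 13179, chromosome 10, 97479500 to 97518163) had 153.9, 59.4 and 45.8 CPM in control tumors 1, 2 and 3 and 370.1, 206.2 and 64.1 CPM in test tumors 1, 2 and 3. Test tumors 1 and 2 were above every control and test tumor 3 was between the controls. For *Dcn* the log2 fold change was 1.31 (standard error 0.68, adjusted p = 0.67 by edgeR), and the exact permutation test gave p = 0.2. Without control tumor 1 it was 2.01 and without test tumor 3 it was 1.75, both with an unadjusted p under 0.05. It was 0.64 without test tumor 1 and 1.10 without control tumor 2, both above that threshold, and no adjusted p was under 0.05 in these 4 fits.

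The 8 adipocyte markers also had their highest sums in test tumors 1 and 2, at 507.7 and 135.8 FPKM, against 24.8 in test tumor 3 and 23.7 to 38.1 in controls. Of the 4 that passed the filter, *Cfd*, *Adipoq* and *Fabp4* had an unadjusted p under 0.05 and were higher in test tumors. *Plin1*, *Cidec* and *Retn* were also highest in test tumors 1 and 2. *Plin4* was at 9.17 FPKM in test tumor 1 but at 0.42 in test tumor 2, below every control (0.48 to 2.1). *Lep* was highest in control tumor 3, at 0.13 FPKM. The 8 skeletal muscle markers summed to 4.77, 121.4 and 3.53 FPKM in controls and 617.5, 131.9 and 71.4 in test tumors. The part of fat or muscle tissue in the *Dcn* difference was not tested. The genes closest to *Dcn* in profile were *Arl4d* (0.31), *Pcp4* (0.33), *Pcdhga7* (0.33), *Aspg* (0.38) and *Pcbd1* (0.39), and the closest core protein gene was *Ogn*, at 0.96 and rank 1161.

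Biglycan is the closest relative of decorin. *Bgn* (NCBI Gene 12111, chromosome X, 73483601 to 73495936) had the smallest ratio of highest to lowest CPM of the 10 (2.35, next to 2.46 for *Sdc1*, whose log2 values had the smaller SD), with 584.9, 419.5 and 618.8 CPM in controls and 263.6, 602.0 and 281.1 CPM in test tumors. Test tumors 1 and 3 were below every control and test tumor 2 was among them. Its log2 fold change was -0.50 (standard error 0.39, adjusted p = 0.762 by edgeR), and it was -0.99 without test tumor 2, then with an unadjusted p under 0.05, and -0.66 without control tumor 2. Relative to fibroblast markers its log2 ratio was 3.60, 2.91 and 2.87 in controls and 3.28, 2.96 and 2.72 in test tumors, which differed by less than the spread within either group (difference -0.14, exact permutation p = 0.7). The 12 fibroblast markers summed to 510.2, 848.1 and 982.7 FPKM in controls and 344.4, 1216.8 and 518.5 in test tumors. Of these, *Pdpn* had an unadjusted p under 0.05 and was lower in test tumors, at 82.09, 12.91 and 121.3 FPKM in controls and 11.58, 16.52 and 13.85 FPKM in test tumors.

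Lumican and decorin are neighbors on chromosome 10, with 46984 bases between the genes. *Lum* (NCBI Gene 17022, 97565501 to 97572703) was highest in test tumor 2, at 82.6 CPM, with 16.0 and 21.8 in test tumors 1 and 3 and 35.1, 29.2 and 17 in controls. *Dcn* was highest in test tumor 1 instead, where *Lum* was lowest. For *Lum* the log2 fold change was 0.57 (standard error 0.63, adjusted p = 0.823 by edgeR) and turned to -0.52 without test tumor 2, and it was 0.62 without control tumor 2. The next genes of this cluster, *Kera* and *Epyc*, were at or below 0.07 FPKM.

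Asporin and osteoglycin lie in a second cluster on chromosome 13 with *Ecm2* and *Omd* (osteomodulin). *Aspn* (NCBI Gene 66695, 49544443 to 49567565) had 3.47, 13.7 and 11.4 CPM in controls and 13.6, 39.7 and 19.6 CPM in test tumors. Test tumors 2 and 3 were above every control, and test tumor 1 was just under control tumor 2. For *Aspn* the log2 fold change was 1.35 (standard error 0.59, adjusted p = 0.606 by edgeR), and over the fits that left out 1 tumor it ran from 0.80 without test tumor 2 to 1.70 without control tumor 2. The unadjusted p was under 0.05 in 7 of 13 alternatives, among them DESeq2 and the fits without control tumor 2 or test tumor 1, and the adjusted p was at least 0.318 in each. Relative to the fibroblast markers *Aspn* was -3.67, -1.98 and -2.85 in controls and -0.95, -0.94 and -1.09 in test tumors on the log2 scale, so that the groups did not overlap (difference 1.84, exact permutation p = 0.1, and 0.62 after adjustment over the 14 ratios).

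*Omd* was the most abundant gene of the cluster, at 40.95, 103.61 and 49.19 FPKM in controls and 52.84, 150.3 and 64.26 FPKM in test tumors (log2 fold change 0.52, adjusted p = 0.801 by edgeR). *Ogn* (NCBI Gene 18295, 49608015 to 49624501) was low, with 9.72, 1.95 and 5.01 CPM in controls and 5.3, 6.84 and 5.2 CPM in test tumors. Control tumor 1 was highest and control tumor 2 lowest, at 18 counts, the lowest count of any of the 10 genes. For *Ogn* the log2 fold change was 0.06 (standard error 0.59, adjusted p = 0.982 by edgeR), and it was -0.35 without control tumor 2. *Aspn*, *Omd* and *Ogn* lie within *Cenpp*, which is read from the other strand and was at 3.86, 10.72 and 6.9 FPKM in controls and 4.38, 11.99 and 8.27 in test tumors. Whether strand was used in counting is not given in the sources used here, and without it reads of these genes and of *Cenpp* cannot be told apart where they overlap.

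Fibromodulin stood out in 1 tumor. *Fmod* (NCBI Gene 14264, chromosome 1, 134037254 to 134048280) had 10.3, 7.46 and 91.6 CPM in control tumors 1, 2 and 3 and 14.2, 12.0 and 5.2 CPM in test tumors 1, 2 and 3. Control tumor 3 was above the other 5 tumors, which overlapped. For *Fmod* the log2 fold change was -1.80 (standard error 0.95, adjusted p = 0.675 by edgeR), and it turned to 0.23 without control tumor 3, whereas it was -2.29 without control tumor 2. The 7 basal epithelial markers also had their highest sum in control tumor 3, at 1091.0 FPKM against 188.3 to 409.4 in the other tumors. *Acta2*, at 682.33 FPKM, was the largest part of that sum, and *Krt5*, *Oxtr* and *Myh11* were also highest there. *Krt17* and *Trp63* were highest in control tumor 1 and *Krt14* in test tumor 3. The part of these markers in the *Fmod* value was not tested.

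Of the cell surface members, syndecan-1 was the core protein whose groups did not overlap. *Sdc1* (NCBI Gene 20969, chromosome 12, 8771396 to 8793716) had 98.3, 93.1 and 84.1 CPM in controls and 138.4, 103.4 and 206.8 CPM in test tumors. Every test tumor was above every control, although test tumor 2 exceeded control tumor 1 by little. Its log2 fold change was 0.70 (standard error 0.30, adjusted p = 0.591 by edgeR), and the exact permutation test gave p = 0.1, the smallest that it can give. Without test tumor 3 the log2 fold change was 0.41, and without control tumor 2 it was 0.72. The unadjusted p was above 0.05 in 5 of the 6 fits that left out 1 tumor, the exception being without test tumor 2. The 8 luminal epithelial markers summed to 1164.7, 2494.6 and 1106.3 FPKM in controls and 3257.7, 3147.6 and 3291.0 in test tumors, and *Krt8*, *Krt18* and *Krt19* were higher in test tumors at an unadjusted p under 0.05. Relative to these markers the log2 ratio of *Sdc1* was -1.56, -2.61 and -1.73 in controls and -2.45, -2.82 and -1.78 in test tumors (difference -0.38, exact permutation p = 0.4), and the groups overlapped.

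Glypican-3 is a heparan sulfate proteoglycan that is bound to the membrane by a lipid anchor. *Gpc3* (NCBI Gene 14734, chromosome X, 52272426 to 52613974) had 21.2, 4.22 and 19.3 CPM in controls and 13, 7.57 and 9.66 CPM in test tumors. Control tumors 1 and 3 were above every test tumor and control tumor 2 was below them. Its log2 fold change was -0.56 (standard error 0.58, adjusted p = 0.811 by edgeR), and without control tumor 2 it was -1.0, then with an unadjusted p under 0.05. Annotated antisense genes overlap *Gpc3* and *Vcan*, so the limit on strand holds for them too.

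**Figure D5:**
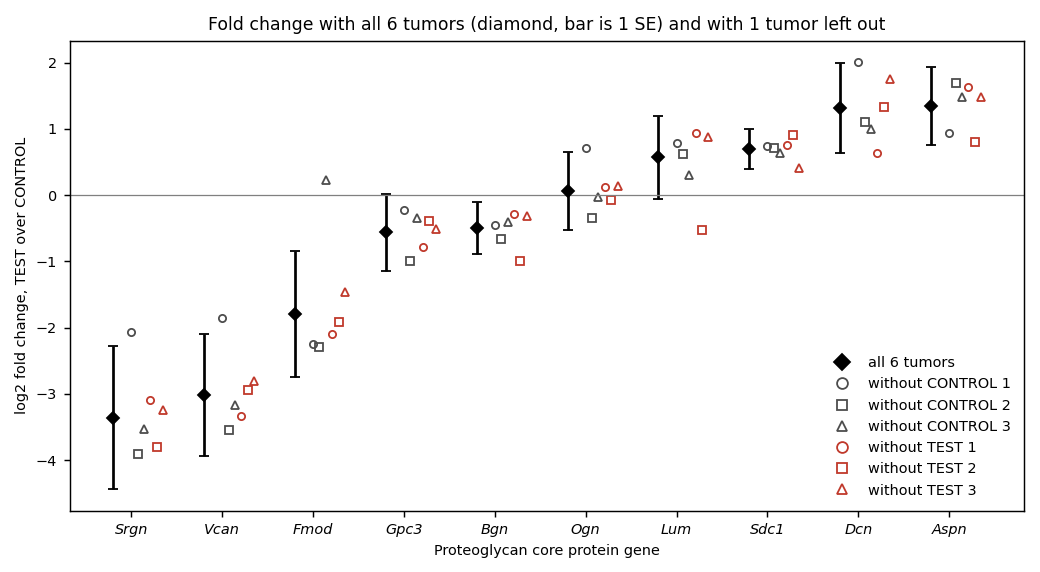
Log2 fold change of test over control for the 10 core protein genes from edgeR, with all 6 tumors (black diamonds, bars are 1 standard error) and with each tumor left out (open symbols, grey for a control and red for a test tumor). *Srgn* and *Vcan* stay below 0 in each case, at -2.06 and -1.86 without control tumor 1, while *Fmod*, *Lum* and *Ogn* change sign without 1 tumor.

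To place these genes among the rest of the pathway, 5 lists of related genes were examined, with 130 genes of which 125 were listed and 99 passed the filter on low counts. At an unadjusted p under 0.05, 14 were lower in test tumors and 0 were higher, beside the shares of all tested genes given above. No adjusted p was under 0.05 by edgeR, and DESeq2 gave 6 of the 99. DESeq2 at an unadjusted p under 0.05 gave 19 lower and 2 higher, where 6.26% and 3.85% of all tested genes were lower and higher. With edgeR the count of lower genes was 37 of 105 without control tumor 2 (9.06% of all tested genes), 8 of 102 without control tumor 1 (2.59%) and 9 of 103 without control tumor 3 (3.07%).

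Of 26 other core proteins tested, *Sdc3*, *Cspg5*, *Podn* and *Tgfbr3* were lower in test tumors at an unadjusted p under 0.05, and the median log2 fold change was -0.48. Syndecan-3 (*Sdc3*), a heparan sulfate proteoglycan of the syndecan family, was at 171.48, 39.05 and 123.8 FPKM in controls and 12.83, 13.58 and 34.35 in test tumors, without overlap, and its log2 fold change was -2.48 (standard error 0.65, adjusted p = 0.407 by edgeR). *Cspg5*, a transmembrane chondroitin sulfate proteoglycan best known from brain, was at 68.11, 2.49 and 70.49 FPKM in controls and 1.93, 3.57 and 0.66 in test tumors. *Tgfbr3* (betaglycan), a coreceptor of transforming growth factor-β, was at 64.31, 10.44 and 41.6 FPKM in controls and 20.09, 4.93 and 8.24 in test tumors. In these 3 genes, as in *Srgn*, control tumors 1 and 3 were highest. Syndecan-4 (*Sdc4*) had the opposite direction, at 110.36, 73.8 and 85.71 FPKM in controls and 130.68, 141.6 and 143.68 in test tumors without overlap (log2 fold change 0.62, adjusted p = 0.618 by edgeR). The most abundant of the remaining cores were *Agrn* and *Sdc2*, with log2 fold changes of -0.79 and -0.66, and *Cd44*, the hyaluronan receptor, with 0.17, and none of the 3 had a p under 0.05.

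Among 40 tested genes that build or sulfate glycosaminoglycan chains, 4 were lower at an unadjusted p under 0.05, with a median log2 fold change of -0.47. *Chsy1* and *Chsy3*, which polymerize chondroitin, had log2 fold changes of -2.29 and -3.39, *Chst11*, a chondroitin 4-sulfotransferase, had -2.97, and *Dse*, the epimerase that makes dermatan sulfate, had -1.55. *Chst11* was at 28.03, 5.25 and 38.52 FPKM in controls and 2.2, 3.57 and 3.31 in test tumors, without overlap (adjusted p = 0.394 by edgeR). *Chsy1* was at 116.67, 16.56 and 51.61 FPKM in controls and 6.12, 12.34 and 19.9 in test tumors, so control tumor 2 was again within the test range. The sulfate donor enzyme *Papss1* and its transporter *Slc35b2*, used by all sulfated chains, had log2 fold changes of -0.15 and 0.06 (adjusted p = 0.885 and adjusted p = 0.966 by edgeR). *Hs6st1*, a heparan sulfate 6-sulfotransferase, had -0.76 (adjusted p = 0.599 by edgeR) with no overlap between the groups, and it was among the lower genes at an unadjusted p under 0.05 with DESeq2. With the replicate number as a block, *Chst11* and *Hs6st1* were the genes of this list that were lower at that p.

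Of 25 tested genes for removal of chains or cleavage of cores, 5 were lower at an unadjusted p under 0.05, and the median log2 fold change was -0.61. They included *Adamts5* (-1.91) and *Adamts9* (-2.14), proteases that cleave versican, and the lysosomal enzymes *Idua* (-1.74), *Hyal1* (-1.40) and *Gusb* (-0.61). *Adamts5* was at 9.9, 1.8 and 6.67 FPKM in controls and 1.63, 1.68 and 1.64 in test tumors. The most abundant of this list, the extracellular sulfatase *Sulf2*, was at 238.21, 102.3 and 262.5 FPKM in controls and 137.32, 84.15 and 89.73 in test tumors (log2 fold change -0.97, adjusted p = 0.6 by edgeR). The lysosomal enzyme *Hexa* had a log2 fold change of -1.24, with an unadjusted p above 0.05.

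Of the 4 tested genes for hyaluronan synthesis and its link proteins, *Has2*, the main hyaluronan synthase of mesenchyme, was lower at an unadjusted p under 0.05. It was at 2.74, 0.6 and 3.1 FPKM in controls and 0.28, 0.94 and 0.47 in test tumors (log2 fold change -1.91, adjusted p = 0.551 by edgeR). *Has3*, *Hapln3* and *Hapln4* were at or below 2.8 FPKM in every tumor. The median log2 fold change was -1.04 for this list and -0.73 for the 4 tested cargo genes of serglycin. For the 12 listed cargo genes with no filter on low counts the median was 1.64, which includes genes with few reads.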

How the data were processed

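RNA from 6 breast tumors, 3 test and 3 control, was sequenced at BGI per the labels. The paper states alignment to mm10 with Bowtie, and the submitters' processing notes name Bowtie, BWA and RSEM. BWA was used for the study's ChIP-seq. Versions, the role of RSEM and the annotation release are not given in the sources used here. The authors deposited for each gene the expected count without any normalization, the FPKM, normalized by them for gene length and depth, and the gene length. Genes not listed for a tumor were set to 0. Of 18460 identifiers, 18400 were matched to RefSeq. In each tumor 79.0% to 80.1% of these expected counts were whole.

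Expected counts were rounded and tested in R 4.3.3 with edgeR 4.0.16 (filterByExpr, TMM, quasi-likelihood, no covariate, Benjamini-Hochberg over all tested genes). The common biological coefficient of variation was 0.4341. A standard error is the log2 fold change over the square root of F. Exact two-sided permutation tests used the 20 splits of 6 tumors on log2(CPM + 0.5), or on log2 ratios of FPKM + 0.1 to the geometric mean of a marker list. The members, gene lists, markers and tests were chosen with earlier results of these data known. Named genes are the 10 members, the 8 other cores and 4 genes of each other list with the highest mean FPKM, the 5 genes most like *Srgn* and *Dcn*, and genes of a list with an unadjusted p under 0.05. The latter, and *Kera*, *Epyc*, *Cenpp*, *Ecm2* and single markers and cargo genes, were named after their values were seen. Some genes that the rule names are not reported here. The paper states that each tumor came from a separate mouse. *Gpc5*, *Ndst4*, *Hs3st2*, *Hapln2* and *Mpo* are not listed in any tumor.

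Alternatives were DESeq2 1.42.0, RLE normalization, other filters, limma-trend (limma 3.58.1) on log2 FPKM with 1 or 0.1 added, the replicate number as a block, and leaving out each tumor. The authors' own comparisons and their other experiments were not used here.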

Additional observations from a re-analysis of the deposited data

How the results depend on the processing

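*Srgn* and *Vcan* kept a log2 fold change below 0 and *Dcn*, *Aspn* and *Sdc1* above 0 in each alternative fit. The count of genes past an adjusted p of 0.05 was 0 with edgeR and all 6 tumors, 313 with DESeq2, 1 with limma-trend on log2(FPKM + 1), and from 0 to 182 when 1 tumor was left out, the 182 being without control tumor 2. The members with an unadjusted p under 0.05 were 3, against 5 with DESeq2, 1 and 0 with limma-trend after adding 1 or 0.1 to FPKM, and 2 to 5 with 1 tumor left out. DESeq2 gave no p for *Fmod*. Related genes lower in test tumors at that p were 14, 22 with no filter on low counts, and 8 to 37 with 1 tumor left out. Leaving out 1 tumor turned the sign of the log2 fold change for *Fmod* (range -2.29 to 0.23, above 0 without control tumor 3), *Lum* (-0.52 to 0.94, below 0 without test tumor 2) and *Ogn* (-0.35 to 0.72, with -0.35, -0.02 and -0.07 without control tumors 2 and 3 and test tumor 2). On log2(CPM + 0.5) the difference then ran from -0.46 to 0.70 for *Lum*, -1.64 to 0.13 for *Fmod*, -0.27 to 0.76 for *Ogn* and -1.0 to 0.10 for *Gpc3*, and the ratio to fibroblast markers from -0.29 to 0.10 for *Bgn*, -1.17 to 0.34 for *Fmod* and -0.51 to 0.74 for *Gpc3*. The median of the 10 genes ran from -0.5 to 0.25 with 1 tumor left out. The cause was not tested.

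The tumors with the same replicate number have different genotypes and thus came from different mice, and their deviations from the group means correlated at -0.025, 0.121 and -0.137. With the replicate block, 0 genes passed an adjusted p of 0.05 and 3 members had an unadjusted p under 0.05, which were then *Vcan* (-2.36), *Dcn* (1.18) and *Aspn* (1.42), while *Srgn* was at -2.66 (adjusted p = 0.698 by edgeR), with a median of -0.03 over the 10 genes and 13 related genes lower. *Ogn* had 18 to 84 counts per tumor, with the lowest count of the 10 genes in control tumor 2.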
